A study of Homo sapiens with 3 samples.

Results

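The library of blood vessel organoids with 45 days of NEUROD1 induction was compared with the library without induction, across genes for transcription factors, ligands and receptors. Barcodes with at least 1000 unique molecular identifiers (UMIs), at least 500 genes and at most 20% UMIs of mitochondrial (MT-) genes were kept as cells. That left 9644 cells at 45 days and 8858 cells without induction, or 18502 of the 23805 cells that pass in all 3 libraries of the series. The genes described are the members of lists of transcription factors (321 genes), ligands with secreted antagonists (300 genes) and receptors (243 genes). Of these 864 genes 863 were found in the files, all but FIGF, an older symbol.

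Both libraries came from organoids harvested on day 45. The organoids were derived from H1, a widely used and established line of human embryonic stem cells. The line carried a cassette for NEUROD1-P2A-GFP that doxycycline switches on, placed in the genome by a PiggyBac transposon, and the uninduced organoids carried it too. Doxycycline was at 1 µg/ml for 45 days in 1 group and was not given in the other, and BDNF and NT-3 were in the medium of both from day 15. Another library, with 15 days of doxycycline and also harvested on day 45, is given only as a value beside these. Each library pooled 5 to 6 organoids, and the labels name no clone. With 1 library a side no test between the groups is possible. No p-value is therefore given, the folds carry exact conditional binomial 95% intervals that cover counting error only, and the differences have no replicate check. Effects of the drug itself and of NEUROD1 cannot be told apart.

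Blood vessel organoids are self-organising cultures in which endothelial cells form tubes that mural cells wrap, within a bed of mesenchymal cells. NEUROD1 is a basic helix-loop-helix transcription factor that drives cells towards a neuronal fate and binds DNA at E-box motifs. Mesenchymal cells carry regional transcription factor codes of HOX, LIM homeobox, PITX and FOX genes, which in the embryo mark limb, body wall or gut mesenchyme. Vessels depend on ligand and receptor pairs between these cells, such as VEGFA with KDR, angiopoietins with TEK, and apelin with APLNR.

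The kept cells had medians of 5305.5 UMIs and 4.64% mitochondrial UMIs without induction, and of 5697 UMIs and 3.00% at 45 days. Summed over cells there were 57924134 and 63004449 UMIs. The 2 libraries shared 27 cell barcodes. Joint clustering, with all listed genes left out, gave 20 clusters. Endothelial-like cells (cluster 13, which met 14 of 15 markers) were 6.10% of cells without induction and 2.74% at 45 days. Mural-like cells were 9.52% and 13.6%, mesenchymal-like cells (clusters 1 to 8, 10 and 14) 66.7% and 63.7%, and cycling cells 9.56% and 7.84%. Neuron-like cells were 3.58% at 45 days and 0 of 8858 without induction, which allows a share of up to 0.0339% when 3 cells are taken as the limit of a count of 0. The summed level of the 12 mesenchymal markers was 10940 CPM (UMIs of a gene scaled to a common library total) without induction and 4524 CPM at 45 days. That of the 15 endothelial markers was 993 and 637 CPM, and that of the 15 mural markers 798 and 684 CPM. That of the 15 neuronal markers was 323 and 1791 CPM. A summed level alone does not tell fewer cells of a type from less marker RNA per cell. Values per cluster are given further on for listed genes, but not for these marker sums. Endothelial-like cells were lower at 45 days in both share and marker sum. Mesenchymal-like cells had near shares (66.7% and 63.7%) but marker sums of 10940 and 4524 CPM. Mural-like cells had a higher share at 45 days but a lower marker sum. The reason was not tested. The glial markers SOX10 and FOXD3 were at 0 without induction, as were the muscle markers MYOD1 and MYOG. The summed levels of these lists were near each other in the 2 libraries. They were 22.1 CPM without induction and 20.5 CPM at 45 days for the 8 glial markers, and 59.9 and 66.1 CPM for the 8 muscle markers.

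For 3 genes that carry the comparison, the 250 bases before the RefSeq start site (GRCh38.p14) are shown because a NEUROD1 E-box is a readable feature of a promoter. LHX9 and MEOX2 had the highest ratios of the listed factors after NEUROD1, and TEK, a vascular receptor, had a low one. The motif searched was CAGATG on either strand, which reads CATCTG in reverse, and capitals mark it.
LHX9, chr1:197912214-197912463, plus strand: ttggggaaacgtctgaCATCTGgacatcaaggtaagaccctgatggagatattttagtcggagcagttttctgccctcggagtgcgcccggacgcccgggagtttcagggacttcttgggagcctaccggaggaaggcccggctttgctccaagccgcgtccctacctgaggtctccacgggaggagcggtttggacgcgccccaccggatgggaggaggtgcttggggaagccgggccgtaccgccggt
MEOX2, chr7:15686684-15686933, minus strand: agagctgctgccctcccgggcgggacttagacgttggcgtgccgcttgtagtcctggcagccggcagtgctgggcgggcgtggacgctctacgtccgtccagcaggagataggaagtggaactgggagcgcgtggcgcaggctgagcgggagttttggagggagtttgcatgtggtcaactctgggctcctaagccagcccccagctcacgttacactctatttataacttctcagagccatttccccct
TEK, chr9:27108975-27109224, plus strand: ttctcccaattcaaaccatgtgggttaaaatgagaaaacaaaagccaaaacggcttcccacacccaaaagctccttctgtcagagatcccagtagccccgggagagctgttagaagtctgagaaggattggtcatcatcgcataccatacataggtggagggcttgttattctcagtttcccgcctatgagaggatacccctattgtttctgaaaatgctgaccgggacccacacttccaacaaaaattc
The LHX9 window held 1 match, and those of MEOX2 and TEK held 0. The gene coordinates given further on come from another annotation, GENCODE, which places the gene starts differently. By it the LHX9 window lies inside the gene, and the windows of MEOX2 and TEK overlap their genes in part. Of 27305 promoter windows of this length, 12.2% held the motif. Among the transcription factors at least 2-fold higher at 45 days, 17 of 24 had a promoter in the table and 2 of these held it (11.8%), LHX9 and FOXP2. Among the factors at least 2-fold lower, 6 of 11 had a promoter and 0 held it. These are matches of letters in a window and say nothing of binding.

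Levels are CPM over all kept cells of a library, and 1 CPM was added on both sides before a log2 ratio was taken. The counts cover genes that reached 10 CPM in either library, and a gene was counted as apart from a ratio of 2-fold on. Of 9314 genes at that floor, 228 (2.45%) had a level at 45 days at least 2-fold above the uninduced one and 184 (1.98%) at least 2-fold below it, with a median log2 ratio of 0.16. Among the 379 listed genes at the floor 41 were higher (10.8%) and 38 lower (10.0%), and 484 were under it. The listed genes were chosen with earlier results of these data known, and those at the floor include genes that reached it only through the library where they are high. Scaling by the median of ratios lowers every ratio by 0.17. It gives 165 genes higher and 246 lower, so the direction of the overall split depends on the scaling.

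**Figure D1:**
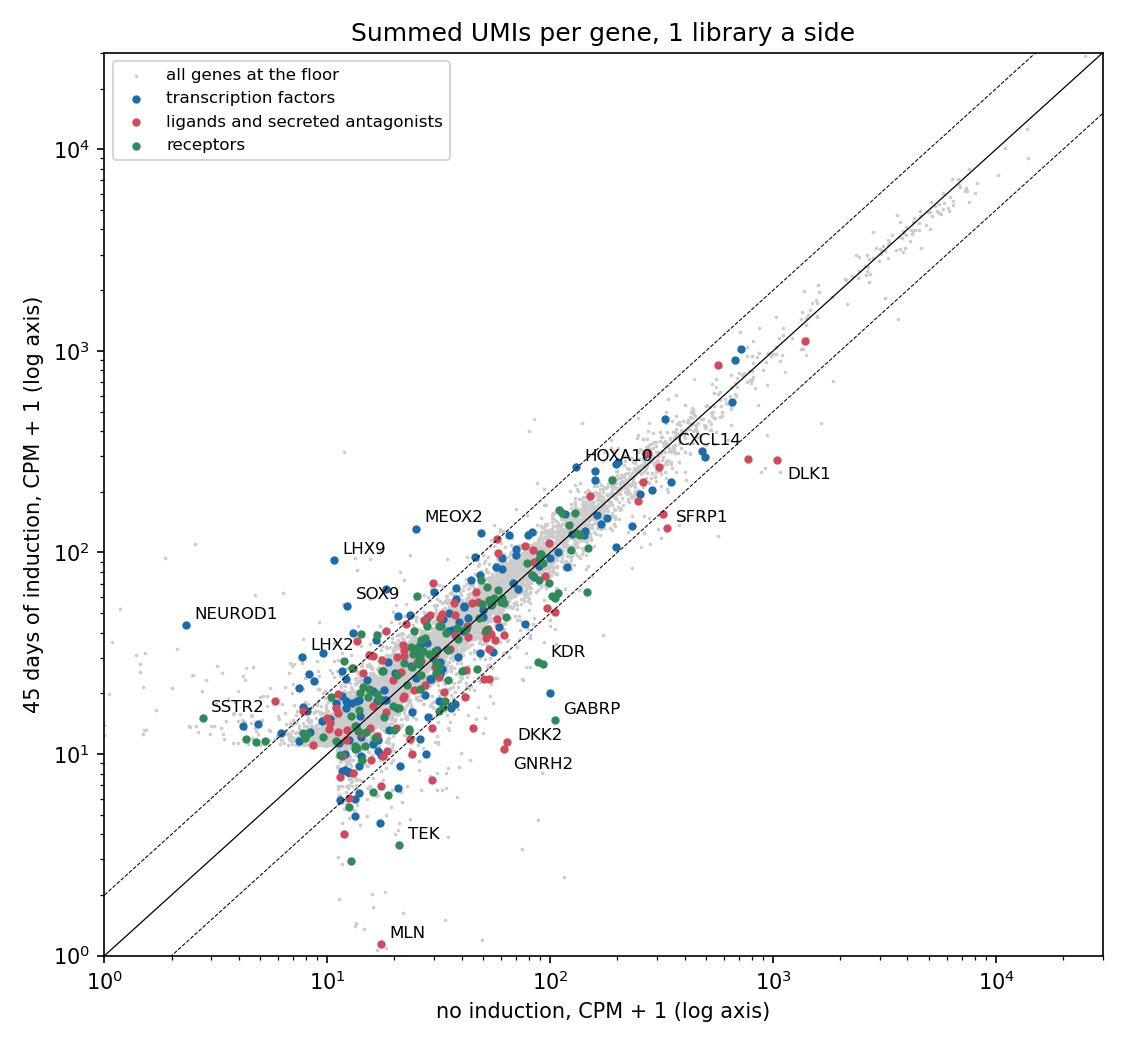
CPM plus 1 without induction (x axis, log) against CPM plus 1 at 45 days (y axis, log) for the 9314 genes at the floor in grey, with the listed transcription factors, ligands and receptors in colour. The solid line marks equal levels and the dashed lines 2-fold, and LHX9, MEOX2 and SOX9 lie above the upper line while DKK2, GABRP and TEK lie below the lower one.

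NEUROD1 (chr2:181673088-181680876, minus strand, GRCh38) was counted 77 times without induction, 68 times at 15 days and 2690 times at 45 days. This is 1.33, 1.41 and 42.7 CPM, and the 45 day library was 32.1-fold above the uninduced one (95% interval 25.6 to 40.8). Of the 45 day UMIs 93.2% lay in neuron-like cells, at 700 CPM there, and mesenchymal-like cells had 3.02 CPM. In the uninduced library 74 of the 77 UMIs (96.1%) came from a single cell of cluster 18, a cell with 64904 UMIs. The uninduced level, and with it the fold, its interval and the nearness to the 15 day level, thus rests mostly on that cell. The log2 ratio was 4.23 with the top cell of each library and 5.35 without it. The same cell size and cluster belong to the cell that held 936 UMIs (98.7%) of MLN, the gut hormone motilin. Cluster 18 was led by AFP, APOA2, SERPINA1 and GNRH2, met both hepatocyte and epithelial markers, and is given by number. NEUROD1 overlaps CERKL on the same strand, and transcripts of the cassette may end in sequence that is not part of the annotation, so the count is an uncertain readout of the transgene.

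Among transcription factors, 154 of 321 were at the floor. Of these 24 (15.6%) were at least 2-fold higher with induction and 11 (7.14%) lower, beside 2.45% and 1.98% of all genes. Their median log2 ratio was 0.14, near that of all genes, so a minority of factors was far apart while the rest lay together. Of the 24 higher factors 4 were in the list of neurogenic and neuronal factors, and 18 in the lists of limb, HOX and visceral or paraxial mesoderm genes. Within mesenchymal-like cells alone, which make up most of the sums, 22 of the 24 also had ratios of 2-fold or more, with no floor applied there. Of these NEUROD1 was under the floor, at 3.02 CPM. With the median of ratios 16 factors were higher and 14 lower.

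The factors of limb and skeletal mesenchyme had 41 of 60 members at the floor, with 6 higher (LHX9, SOX9, LHX2, SALL1, DLX5, SOX8) and 3 lower, among them ALX1 and IRX3. LHX9, a LIM homeobox factor of limb bud and gonad (chr1:197911902-197935478, plus strand), was at 9.69, 14.7 and 90.5 CPM in the libraries without induction, at 15 days and at 45 days. It was 9.34-fold higher at 45 days than without induction (8.56 to 10.2), and the 15 day library lay close to the uninduced one. LHX2, its relative in limb outgrowth, was at 6.70, 25.5 and 29.4 CPM, 4.39-fold higher at 45 days (3.93 to 4.91). SOX9, the master factor of cartilage (chr17:72121020-72126420, plus strand), was at 11.3, 32.0 and 53.4 CPM, which is 4.73-fold (4.35 to 5.15). For LHX2 and SOX9 the 15 day library was already well above the uninduced one. The chondrogenic marker list, which contains SOX9, had a summed level of 138 CPM without induction and 145 CPM at 45 days, so the list as a whole was at a like level.

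ALX1, a factor of facial and body wall mesenchyme, was at 12.3, 1.97 and 3.95 CPM, and IRX3 at 24.9, 6.94 and 10.9 CPM. Both induced libraries were thus below the uninduced one for these genes. TWIST1, a general mesenchymal factor, was at 477 and 317 CPM and within 2-fold.

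HOX genes set position along the body and limb. Of 39 genes 19 were at the floor, with HOXD13, HOXA5, HOXA9, HOXA13 and HOXA10 at least 2-fold higher and HOXB8 lower. HOXD13, a gene of the digits and genital tubercle (chr2:176092891-176095938, plus strand), was at 12.03 CPM without induction, 9.39 at 15 days and 38.8 at 45 days, 3.22-fold higher at 45 days (2.96 to 3.51). HOXA10 was at 130, 176 and 265 CPM. The following values were picked out after they were seen. The 6 HOXA genes at the floor had log2 ratios from 0.40 (HOXA11) to 1.14 (HOXA5), and the 8 HOXB genes from HOXB2 to HOXB9 had ratios from -1.11 (HOXB8) to -0.36 (HOXB2), while HOXB13 had 0.64. With the cluster makeup held fixed, as described further on, the HOXB2, HOXB4, HOXB5 and HOXB6 ratios turned to 0.06, 0.24, 0.15 and 0.02, so the lower HOXB values did not all hold. The higher HOXA genes kept their sign there but fell short of 2-fold, at 0.79 (HOXA5), 0.77 (HOXA9), 0.63 (HOXA10) and 0.47 (HOXA13). HOXA5, HOXA9, HOXA10 and HOXB8 each overlap another gene of the files on the same strand, so their counts could be shared with it.

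The factors of visceral and paraxial mesoderm had 22 of 52 genes at the floor, with 7 higher (MEOX2, EBF3, FOXC1, DACH1, NR2F1, EBF2, FOXP2) and 3 lower (GATA6, FOXF2, HAND1). MEOX2, a somite and limb muscle factor that is also made by vascular cells (chr7:15611212-15686812, minus strand), was at 23.9, 94.9 and 130 CPM without induction, at 15 days and at 45 days. Its fold at 45 days was 5.44 (5.14 to 5.77). EBF3, a helix-loop-helix factor of mesoderm and neurons, was at 8.51, 24.2 and 30.9 CPM. FOXC1, a factor of paraxial mesoderm and mural cells, was at 7.67, 36.9 and 21.9 CPM. In all of these the 15 day library stood with the 45 day library.

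Among the lower members, GATA6, a zinc finger factor of heart and gut mesoderm, was at 16.3, 10.2 and 3.54 CPM, 4.59-fold lower at 45 days (3.97 to 5.34). FOXF2, a factor of gut wall mesenchyme, was at 19.8, 9.58 and 5.81 CPM, and HAND1, a factor of heart and extraembryonic mesoderm, at 26.7, 16.02 and 8.999 CPM. The 15 day value of each lay between the other two. NR2F2, a nuclear receptor of veins and mesenchyme, was at 285 and 202 CPM.

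Neurogenic and neuronal factors had only 9 of 61 genes at the floor. ZIC2, DLX1 and DLX2 were higher besides NEUROD1. ZIC2, a zinc finger factor of neural plate and mesoderm, was at 17.4, 37.0 and 65.1 CPM, and its highest cluster level at 45 days was 213 CPM in mesenchymal-like cluster 14. DLX1 was at 3.19, 16.4 and 12.8 CPM and DLX2 at 7.30, 27.0 and 24.0 CPM. These 2 genes are known from forebrain neurons but also from craniofacial and limb mesenchyme, and both were at least 2-fold higher within mesenchymal-like cells. SOX4, a broadly made factor of progenitors, was at 675 and 898 CPM and within 2-fold.

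Among endothelial and blood factors 18 of 30 were at the floor, and the lower ones were SOX7, HHEX and EPAS1. SOX7, which with SOX17 and SOX18 sets endothelial identity, was at 20.2, 20.2 and 7.68 CPM. HHEX, a homeobox factor of early endothelium and liver, was at 12.3, 30.1 and 4.95 CPM. Within the endothelial-like cluster SOX7 was at 236 and 209 CPM and HHEX at 131 and 115 CPM, so the 2 genes were at near levels there while that cluster's share of cells was smaller at 45 days. Of 41 signal-response factors at the floor, ATF5 was higher (15.5, 30.1 and 35.9 CPM) and FOSL2 lower (34.9, 16.2 and 15.9 CPM). Of the 4 epithelial and endodermal factors at the floor 0 were 2-fold apart, and TRPS1 (34.2 and 48.9 CPM) and ELF3 (15.8 and 9.36 CPM) were the outer values. Just outside the rule of size were MYCN, at a log2 ratio of 0.97, and HOXC9, at -0.95.

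**Figure D2:**
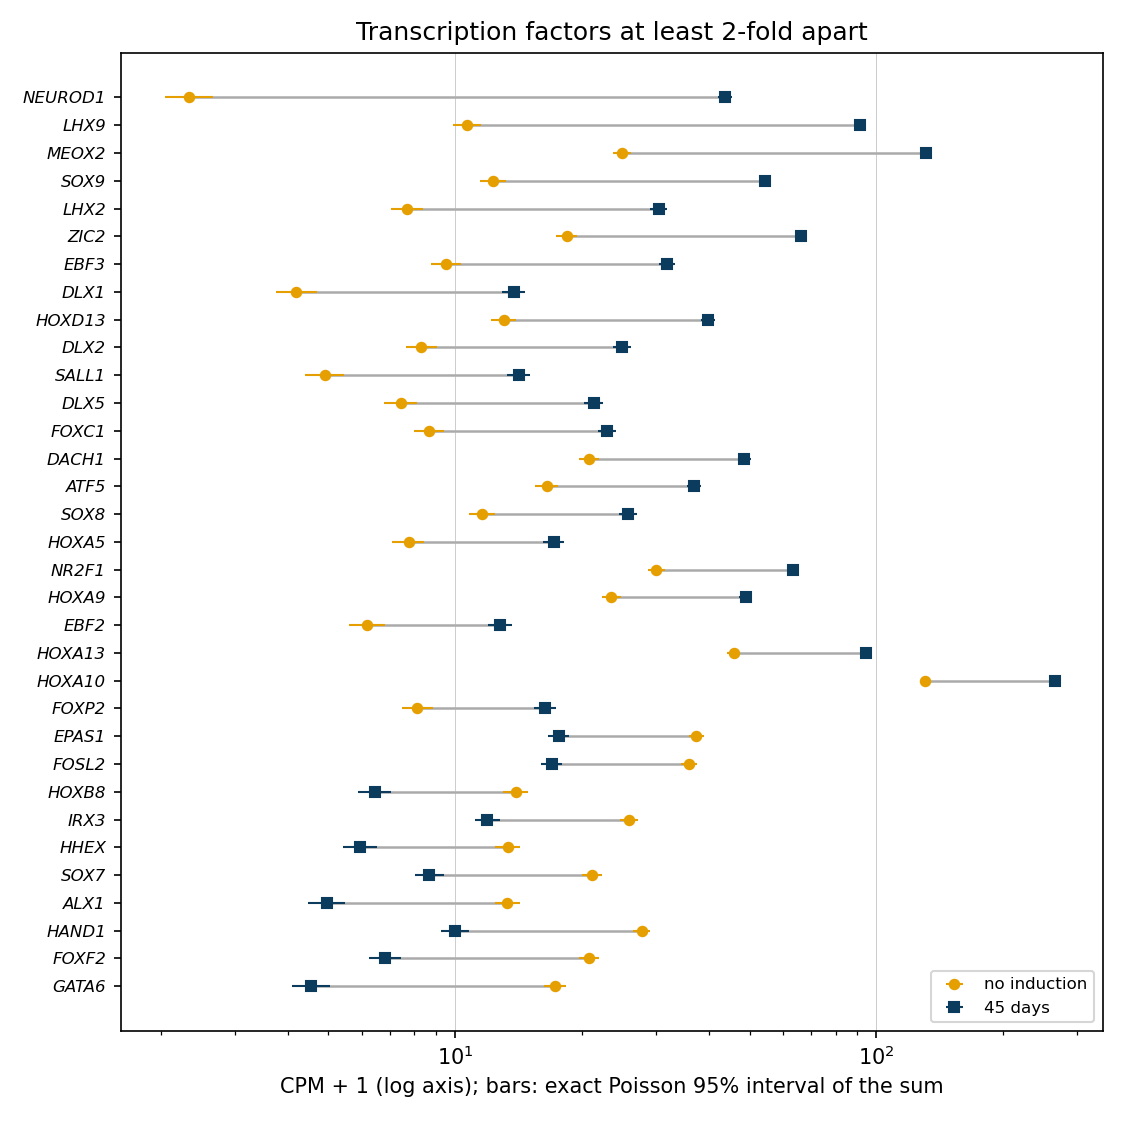
CPM plus 1 (log axis) of 33 of the 35 transcription factors at least 2-fold apart, without induction (circles) and at 45 days (squares), with exact Poisson 95% intervals of the sums as bars. LHX9 (9.69 and 90.5 CPM) and MEOX2 (23.9 and 130 CPM) have long gaps to the right, and GATA6 (16.3 and 3.54 CPM) has a long gap to the left.

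Ligands and secreted antagonists had more members lower than higher at 45 days in the sums. Of 108 genes at the floor 8 were at least 2-fold higher (7.41%) and 18 lower (16.7%), with a median log2 ratio of -0.11 beside 0.16 for all genes. The sign of that median was not stable. It was 0.034 with only 10 UMIs needed, 0.046 with cells weighted equally, 0.107 in mesenchymal-like cells only and 0.10 with the cluster makeup held fixed, where 2 ligands were higher and 4 lower. With the median of ratios 3 were higher and 21 lower. The lower ones were mainly WNT ligands and WNT antagonists, cytokines, and hormones of rare cells. Within mesenchymal-like cells alone, with no floor applied there, 12 of the 18 were at least 2-fold lower and 5 of the 8 at least 2-fold higher.

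WNT proteins are short-range signals that pattern mesenchyme, and DKK and SFRP proteins bind WNTs or their co-receptors and block them. Of 7 WNT and R-spondin genes at the floor WNT2B, WNT5B and WNT6 were lower. WNT2B was at 16.4, 5.09 and 5.97 CPM without induction, at 15 days and at 45 days, and WNT6 at 52.1, 14.9 and 22.7 CPM. WNT6 was a gene of the epithelial-like clusters, at 571 and 281 CPM in cluster 0 and 527 and 366 CPM in cluster 17. WNT5A (45.5 and 62.8 CPM) and RSPO3 (28.0 and 47.7 CPM) had higher values within 2-fold.

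Of the 8 secreted WNT antagonists at the floor DKK2, SFRP1 and SFRP2 were lower. DKK2 (chr4:106921802-107283806, minus strand) was at 63.2 CPM without induction, 3.68 at 15 days and 10.4 at 45 days, 6.06-fold lower at 45 days (5.57 to 6.59). SFRP1 was at 333, 199 and 131 CPM, 2.55-fold lower (2.49 to 2.62), and SFRP2 at 104, 16.9 and 49.5 CPM. DKK3, a distant member of the DKK family, went the other way at 15.1 and 29.6 CPM, a log2 ratio of 0.93.

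TGF-beta and BMP ligands had 12 of 30 genes at the floor. GDF10, also called BMP3B (chr10:47300386-47313547, plus strand), was at 12.6, 15.0 and 35.4 CPM, 2.82-fold higher at 45 days (2.59 to 3.07). BMP7, a bone and kidney morphogen, was at 17.3, 30.3 and 39.6 CPM. TGFB2 was lower, at 49.3, 17.1 and 22.5 CPM. The 5 secreted antagonists of these ligands at the floor all had ratios below 0, from -0.68 (FST, 52.2 and 32.3 CPM) to -0.17 (TWSG1).

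Vascular growth factors had 14 of 25 listed genes at the floor, with PGF and VEGFA higher and 0 lower. PGF, placental growth factor, binds FLT1 (chr14:74941834-74955784, minus strand) and was at 28.7, 76.9 and 69.2 CPM, 2.41-fold higher at 45 days (2.28 to 2.55). VEGFA, the main attractant of vessels (chr6:43770184-43786487, plus strand), was at 56.7, 109 and 116 CPM, 2.05-fold higher (1.96 to 2.13). VEGFA was at 200 and 340 CPM in mesenchymal-like cluster 6, whose leading genes also included ANKRD37, PGK1 and HILPDA, which are known to answer low oxygen. Cluster 6 held 1.35% of cells without induction and 12.8% at 45 days. VEGFC, a lymphatic growth factor, was at 22.5 and 10.9 CPM, a log2 ratio of -0.99 and just short of the rule of size. VEGFA itself sat close to it, at a log2 ratio of 1.02, and at 1.00 without neuron-like cells.

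DLK1 and CXCL14 were far higher in 1 cluster each than in the rest. DLK1, a Notch-related ligand that holds back fat and muscle cells (chr14:100725705-100738224, plus strand), was at 1043, 340 and 285 CPM, 3.66-fold lower at 45 days (3.60 to 3.72). The DLK1 level in mesenchymal-like cluster 1 was 6626 CPM without induction and 9183 CPM at 45 days, and that cluster held 6.33% and 0.35% of cells. CXCL14, a chemokine of epithelium and fibroblasts (chr5:135570679-135579279, minus strand), was at 773, 135 and 289 CPM. In cluster 0 it was at 10508 and 2485 CPM, so that its level within that cluster was lower too. Of the 12 chemokines and cytokines at the floor IL33, TNFSF10, IL32 and TNFSF15 were lower as well. IL33, an alarmin of endothelial nuclei, was at 10.9, 6.15 and 3.00 CPM.

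Among hormones and peptides NTS, GNRH2 and MLN were lower and STC2 and TAC1 higher. NTS, neurotensin, which endothelial cells of lymphatics can make, was at 28.6, 29.1 and 6.48 CPM. Its level in the endothelial-like cluster was 336 and 128 CPM, and 6.37% of its 45 day UMIs lay in neuron-like cells. GNRH2 was at 61.2, 72.9 and 9.65 CPM. It was highest in cluster 18 (3192 and 2237 CPM), and was seen in mesenchymal-like cells at 18.2 and 1.37 CPM and in mural-like cells at 15.3 and 0.683 CPM. The low level across unlike cells moved with cluster 18, which was 0.97% of cells without induction and 0.15% at 45 days, and with the summed hepatocyte markers (400 and 14.5 CPM). The part of free RNA in it was not tested. At 45 days 76.5% of GNRH2 UMIs came from 1 cell, and without the top cell of each library its levels were 47.7 and 2.27 CPM. MLN came from 1 cell, as given above, and had a log2 ratio of -3.93 with that cell and -0.12 without it.

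TAC1, the precursor of substance P, was at 12.03, 33.0 and 25.6 CPM, with 51.7% of its 45 day UMIs in neuron-like cells and 30.6% in 1 cell. Its log2 ratio of 1.03 was 0.64 without the top cell of each library and 0.12 without neuron-like cells. STC2, stanniocalcin, was at 6.75, 20.5 and 15.4 CPM. SEMA3E, a guidance ligand for PLXND1 on endothelium, was at 4.799, 25.8 and 17.3 CPM, with 105 CPM in neuron-like cells and 8.56 and 57.9 CPM in epithelial-like cluster 0. SLIT2, a guidance ligand for ROBO receptors, was at 44.1, 8.23 and 12.4 CPM. FGF7, a mesenchymal signal to epithelium, was at 14.3, 23.8 and 30.0 CPM. Of the 6 neurotrophic factors at the floor 0 were 2-fold apart. MDK was at 1384 and 1114 CPM, and NTF3, which encodes the NT-3 that was also added to the medium, at 19.3 and 12.5 CPM. All 10 EGF family ligands were under the floor.

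In the sums as many receptors were higher as lower, but this balance depended on the settings. Of 117 genes at the floor 9 were at least 2-fold higher (7.69%) and 9 lower (7.69%), with a median log2 ratio of 0.06. With a floor of 50 CPM 1 was higher and 4 lower (median -0.063), with the median of ratios 6 and 14 (median -0.126), and with the cluster makeup held fixed 0 and 3. Of the 9 lower receptors 5 were in the list of vascular receptors. Of the 9 higher ones 4 were guidance receptors and 3 receptors of peptides or amines.

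Vascular receptors had 20 of 26 genes at the floor, with 5 lower and 0 higher. TEK, the angiopoietin receptor TIE2 (chr9:27109141-27230175, plus strand), was at 20.0, 9.60 and 2.54 CPM without induction, at 15 days and at 45 days, 7.89-fold lower at 45 days (6.68 to 9.37). APLNR, the apelin receptor (chr11:57233577-57237314, minus strand), was at 11.8, 13.1 and 1.95 CPM, 6.05-fold lower (4.99 to 7.39). KDR, the main VEGFA receptor (chr4:55078259-55125595, minus strand), was at 91.3, 78.1 and 27.1 CPM, 3.37-fold lower (3.19 to 3.56). S1PR1, a receptor that stabilises vessels, was at 11.5, 9.95 and 4.49 CPM. Endothelial-like cells were 2.74% of cells at 45 days and 6.10% without induction, and the summed levels are set beside those within that cluster. There KDR was at 1010 and 840 CPM, within 2-fold, while TEK was at 201 and 61.0 CPM and APLNR at 137 and 21.8 CPM. TEK and APLNR were lower both in the library and in its endothelial-like cells. Haematopoietic-like cells (98 without induction and 100 at 45 days) had 0 UMIs of TEK in either library.

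NPR3, the clearance receptor of natriuretic peptides, was at 86.9, 48.8 and 27.7 CPM, and in endothelial-like cells at 455 and 236 CPM. PDGFRB, the receptor that recruits mural cells, was at 189 and 228 CPM. FLT1, which binds VEGFA and PGF, was at 104 and 58.2 CPM, and NRP1 and NRP2, coreceptors of VEGFA and semaphorins, were at 89.4 and 97.5 CPM and at 120 and 136 CPM. These 4 were within 2-fold, and FLT1, NRP1 and NRP2 were chosen after their values were seen.

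Receptors of neurotransmitters and peptides had 9 of 66 genes at the floor. SSTR2, a somatostatin receptor (chr17:73165012-73176633, plus strand), was at 1.76, 14.7 and 14.1 CPM, 7.99-fold higher at 45 days (6.50 to 9.90). It was at 73.8 CPM in neuron-like cells, which held 29.8% of its 45 day UMIs, and within mesenchymal-like cells at 1.58 and 10.2 CPM, so it was higher outside neuron-like cells too. NPY1R, a receptor of neuropeptide Y, was at 10.9, 30.2 and 28.0 CPM, and HTR2B, a serotonin receptor, at 3.76, 11.8 and 10.5 CPM. In mesenchymal-like cluster 5 NPY1R was at 59.5 and 78.9 CPM and HTR2B at 35.2 and 34.8 CPM. GABRP, a GABA receptor subunit of epithelium (chr5:170763350-170814047, plus strand), was at 104, 8.25 and 13.7 CPM, 7.58-fold lower (7.06 to 8.15). It was at 1423 and 683 CPM in cluster 17 and at 310 and 39.4 CPM in cluster 0.

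Guidance receptors steer growing axons and vessels. Of 18 at the floor 4 were higher and 0 lower. EPHA4, an ephrin receptor, was at 24.1, 32.1 and 60.0 CPM, 2.49-fold higher (2.34 to 2.65), and was highest in mesenchymal-like cluster 14 at 87.2 and 173 CPM. PLXNA4, a semaphorin coreceptor, was at 3.31, 29.2 and 10.9 CPM, with 57.01 CPM and 29.8% of its 45 day UMIs in neuron-like cells. UNC5D, a netrin receptor, was at 4.25, 10.9 and 10.6 CPM and had 18.5% of its 45 day UMIs in neuron-like cells. EPHB6 was at 11.8, 20.5 and 25.8 CPM.

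LGR5, an R-spondin receptor that marks stem cells of gut and skin (chr12:71439770-71586310, plus strand), was at 13.2, 31.4 and 38.3 CPM, 2.90-fold higher (2.67 to 3.15). It was the one WNT receptor of 16 at the floor that was 2-fold apart. Its levels in cluster 5 were 109 and 108 CPM, and that cluster held 2.74% of cells without induction and 17.7% at 45 days. In cytokine receptors IL6ST, the shared gp130 subunit, was at 144, 90.03 and 62.8 CPM, while IL17RD was higher at 15.7, 33.6 and 37.8 CPM. GFRA1, the GDNF coreceptor, was at 17.7, 4.74 and 5.27 CPM, and NTRK2, the BDNF receptor, at 14.3 and 20.0 CPM. In the lists of TGF-beta and BMP receptors (12 at the floor), of FGF, EGF and insulin family receptors (10) and of Notch and hedgehog receptors (9), 0 genes were 2-fold apart. FGFR1 was at 109 and 161 CPM, BAMBI at 134 and 121 CPM, and GAS1 at 107 and 61.8 CPM.

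**Figure D3:**
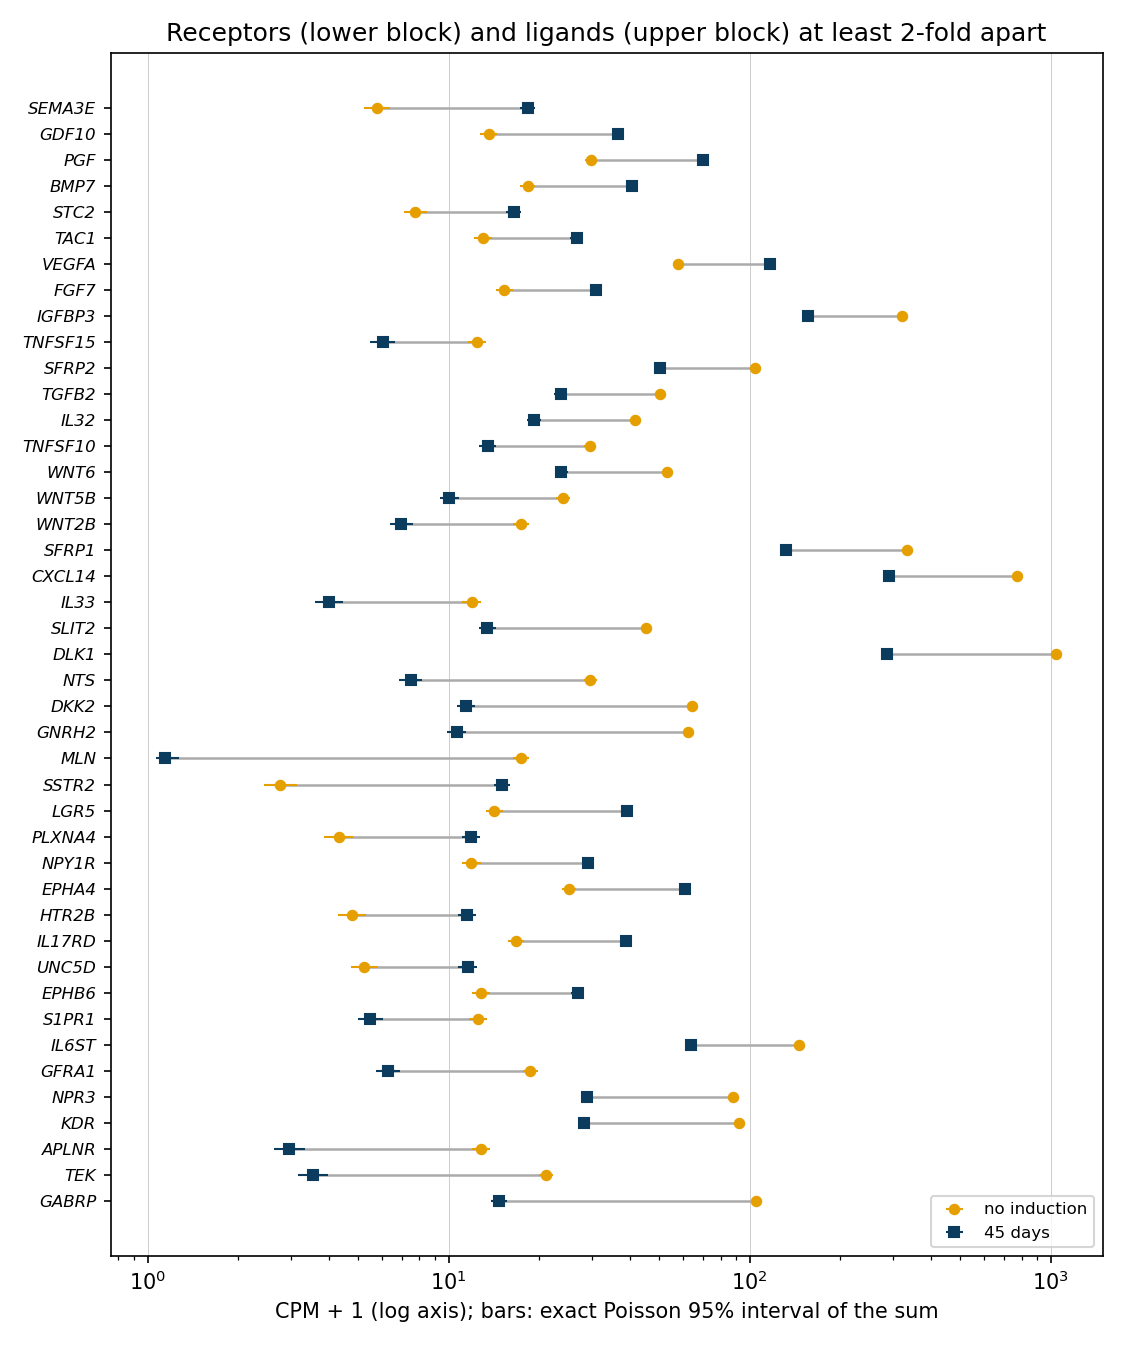
CPM plus 1 (log axis) of the 26 ligands (upper block) and 17 of the 18 receptors (lower block) at least 2-fold apart, without induction (circles) and at 45 days (squares), with exact Poisson 95% intervals of the sums as bars. TEK (20.0 and 2.54 CPM) and GABRP (104 and 13.7 CPM) lie far to the left at 45 days, and SSTR2 (1.76 and 14.1 CPM) far to the right.

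The mesenchymal-like cells of the 2 libraries fell mostly into different clusters. Clusters 3, 7 and 10 held 12.2%, 13.8% and 12.4% of cells without induction and 0.78%, 3.22% and 3.73% at 45 days. Clusters 5, 14 and 6 held 2.74%, 2.34% and 1.35% without induction and 17.7%, 15.5% and 12.8% at 45 days. The clusters came from genes outside the lists, but genes that go with them stayed in, such as HOXA11-AS in cluster 14. With 1 library a group a cluster mostly of 1 library may be that library and not a cell type. Within mesenchymal-like cells 44 of 341 members at the floor were at least 2-fold higher (12.9%) and 37 lower (10.9%), beside 1.69% and 2.08% of all genes.

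Some factors also differed between cells of the same cluster. LHX9 was at 193 and 375 CPM in cluster 14 and at 32.7 and 68.8 CPM in cluster 8. It was at 15.8 and 165 CPM in cycling cells (cluster 12), which were led by cell cycle genes and may mix cell types. The part of such a mix in that difference was not tested. MEOX2 was at 272 and 433 CPM in cluster 5, at 43.4 and 139 CPM in cluster 8 and at 37.5 and 124 CPM in mural-like cluster 9. SOX9 was at 40.4 and 123 CPM in cluster 14 and at 39.9 and 166 CPM in epithelial-like cluster 17. LHX2 was at 105 and 107 CPM in cluster 14, but was at least 2-fold higher at 45 days in 5 of the 10 mesenchymal-like clusters and lower in 0. LGR5, at 109 and 108 CPM in cluster 5, was likewise higher in 5 and lower in 0. No floor was applied to these counts, and by the same rule NEUROD1 was higher in 7 of the 10. With the cluster makeup held fixed, as described below, both genes fell short of 2-fold. LHX2 then had a log2 ratio of 0.58 (15.0 and 22.9 CPM) and LGR5 of 0.56 (23.0 and 34.3 CPM). DKK2 was at 147 and 134 CPM in cluster 3, and SFRP1 at 577 and 105 CPM.

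**Figure D4:**
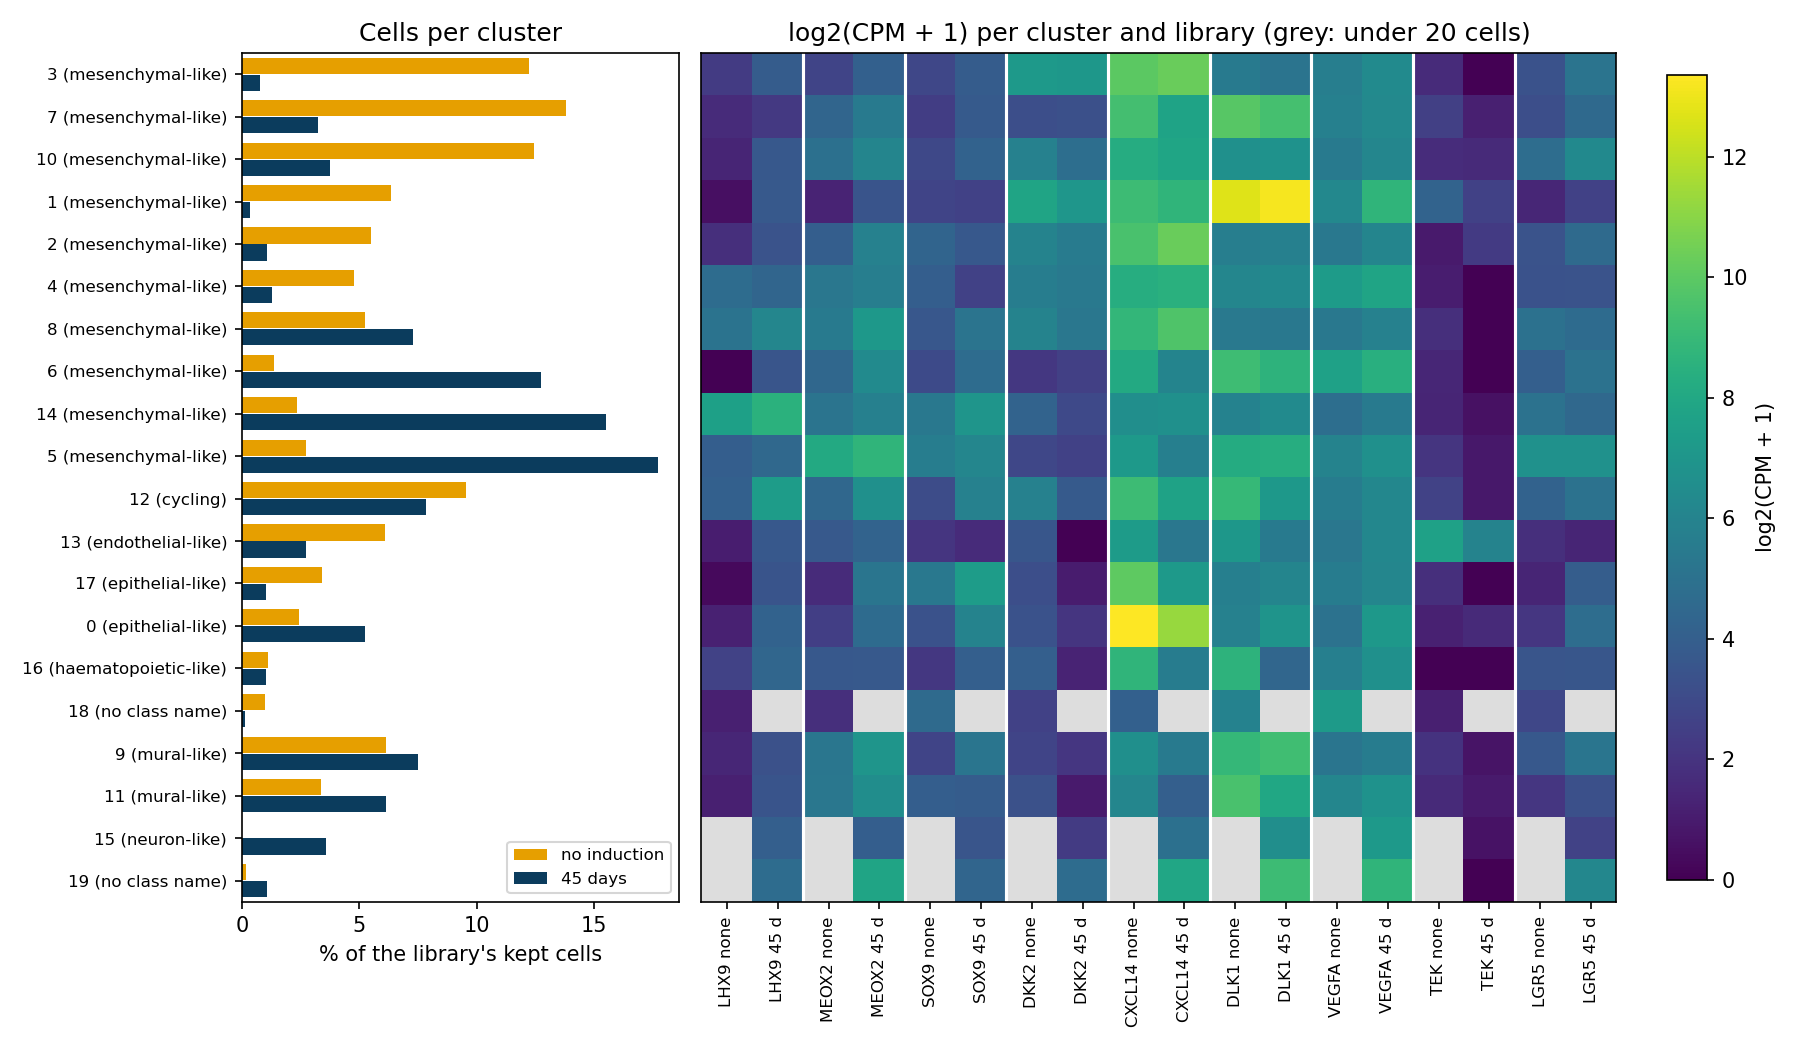
Left, the share of each library's kept cells in the 20 clusters, without induction and at 45 days. Right, log2(CPM + 1) of 9 listed genes in each cluster for both libraries, in which LHX9 is brightest in cluster 14 (193 and 375 CPM), MEOX2 in cluster 5 (272 and 433 CPM) and TEK in the endothelial-like cluster 13 (201 and 61.0 CPM).

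To set the makeup of the libraries aside, the 17 clusters with at least 20 cells in each library were weighted by their pooled share of UMIs, an alternative chosen after the data were seen. Differences of makeup inside a cluster, such as among the cycling cells of cluster 12, are not set aside by this. Of the 79 members at least 2-fold apart in the sums, 76 kept their sign and 18 stayed at least 2-fold apart, with no floor applied to the weighted levels. Across all 9103 genes whose weighted level reached the floor, 0.571% were then higher and 0.384% lower. These shares are not a like value for the 18 of 79, which were already 2-fold apart in the sums and had no floor. The counts of members at the weighted floor are given in the last section. How many of all genes 2-fold apart in the sums stayed so is not given. The factors that stayed included LHX9, SOX9, HOXD13, MEOX2, FOXC1 and NEUROD1. The ligands were GDF10, CXCL14, IL33, NTS, GNRH2 and STC2, and the receptors were TEK, APLNR, GFRA1, GABRP and SSTR2. Of these NEUROD1 (0.035 and 2.82 CPM), IL33 (8.34 and 3.32 CPM), APLNR (8.76 and 2.04 CPM) and SSTR2 (2.10 and 7.95 CPM) were under the floor in the weighted levels. The clusters left out were 15 (neuron-like, 0 and 345 cells), 18 (86 and 14 cells) and 19 (15 and 104 cells). Cluster 15 held 93.2% of the 45 day NEUROD1 UMIs, and GNRH2 was highest in cluster 18. Both genes were thus compared here outside those cells, GNRH2 at 16.9 and 1.32 CPM. LHX9 then had a log2 ratio of 1.44 (24.6 and 68.6 CPM), MEOX2 of 1.10 (46.6 and 101 CPM) and SOX9 of 1.44 (16.1 and 45.4 CPM). TEK had -1.54 (14.6 and 4.38 CPM). DLK1 (0.11), IGFBP3 (0.20) and EPAS1 (0.0085) were the 3 members whose sign turned.

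**Figure D5:**
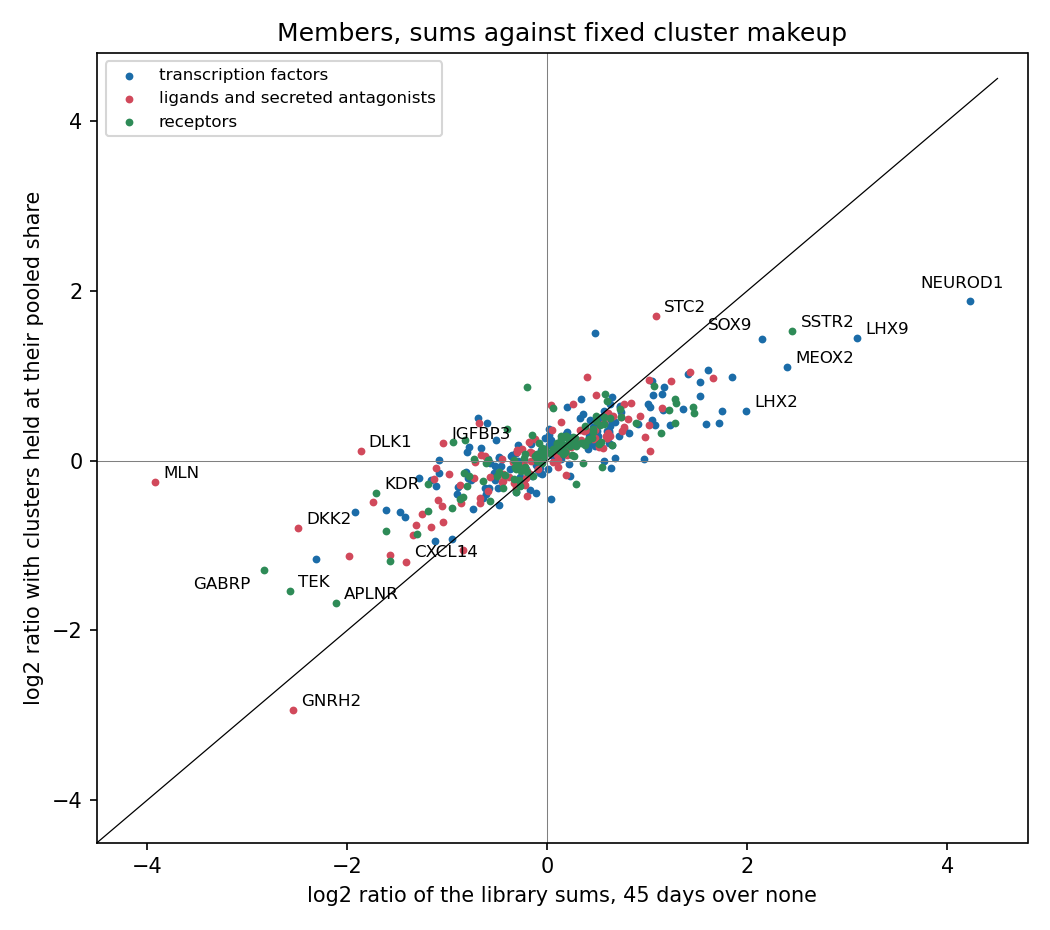
Log2 ratio of the library sums (x axis) against the log2 ratio with clusters held at their pooled share (y axis) for the listed genes, coloured by class. The diagonal marks equal ratios, and LHX9 goes from 3.10 to 1.44 and DLK1 from -1.87 to 0.11.

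Endothelial-like cells were 540 without induction and 264 at 45 days. Of 326 members at the floor there, 20 were at least 2-fold higher (6.13%) and 34 lower (10.4%), beside 1.82% and 1.39% of all genes. The examples that follow were chosen after their values were seen. KLF2, a factor that flow switches on in endothelium, was at 257 and 82.8 CPM, 3.11-fold lower at 45 days (2.63 to 3.70). NR2F2, which specifies veins, was at 235 and 91.3 CPM, and FOS, an immediate early gene, at 138 and 49.9 CPM. APLN, the ligand of APLNR and a gene of tip cells, was at 9.99 and 34.0 CPM, 3.40-fold higher (2.29 to 5.10). UNC5B, another tip cell receptor, was at 365 and 741 CPM, NOTCH4 at 204 and 433 CPM, and PGF at 98.1 and 266 CPM. CXCL8, an angiogenic chemokine, was at 3.11 and 50.4 CPM, 16.2-fold higher (9.21 to 30.8), from 14 and 95 UMIs. The receptor APLNR and its ligand APLN were thus apart in opposite directions in these cells.

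Mural-like cells were 843 without induction and 1315 at 45 days. Of 325 members at the floor there, 31 were higher (9.54%) and 17 lower (5.23%), beside 1.66% and 1.11% of all genes, and 15 of the 31 were transcription factors. MEOX2 was at 37.97 and 110 CPM. Chosen after their values were seen, PPARG, the fat cell factor, was at 11.2 and 33.1 CPM, and ENG, a TGF-beta coreceptor, at 72.4 and 178 CPM. ANGPT2, the ligand that loosens vessels by opposing TEK signalling, was at 136 and 47.8 CPM, 2.85-fold lower (2.53 to 3.22). AREG, an EGF family ligand, was at 30.5 and 0.683 CPM. TEK in endothelial-like cells and ANGPT2 in mural-like cells were thus both lower at 45 days. ANGPT1, the activating ligand, was at 36.0 and 55.2 CPM over all cells.

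Cluster 0 was epithelial-like, with KRT15, KRT17 and TP63 among its leading genes, and had 216 cells without induction and 506 at 45 days. Of 334 members at the floor there, 57 were higher (17.1%) and 27 lower (8.08%), beside 5.92% and 2.92% of all genes. WIF1, a WNT antagonist, was at 18.4 and 213 CPM, 11.5-fold higher (7.92 to 17.5), and SOX9 at 9.21 and 62.2 CPM. VEGFA was at 32.2 and 136 CPM and ADM, adrenomedullin, at 7.90 and 63.9 CPM. WNT7B (98.7 and 29.1 CPM), WNT4 (134 and 55.6 CPM) and WNT10A (71.7 and 31.7 CPM) were lower. WIF1, SOX9, VEGFA, ADM and these WNT genes in cluster 0 were chosen after their values were seen.

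Cycling cells were 847 without induction and 756 at 45 days. Of 333 members at the floor there, 34 were higher (10.2%) and 42 lower (12.6%), beside 1.18% and 1.79% of all genes. LHX9 was at 15.8 and 165 CPM in them. Their makeup by other cell types was not resolved.

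Shares of cells with a UMI gave the same order for the leading factors. After each cell was thinned to 2000 UMIs, LHX9 had a UMI in 1.60% of cells without induction and 11.2% at 45 days, and unthinned in 3.32% and 19.0%. MEOX2 had thinned shares of 4.46% and 19.2%. In haematopoietic-like cells, which should lack these factors, LHX9 had thinned shares of 1.15% and 1.16% (1 of 87 and 1 of 86 cells) at median depths of 4698.5 and 5699.5 UMIs. DLK1 had thinned shares of 20.4% and 20.3%, although its CPM was 3.66-fold lower, so the difference in DLK1 lay in cells with many UMIs and not in the number of cells with any. The 344 and 504 cells with fewer UMIs were left out of these shares.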

How the data were processed

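The authors deposited UMI counts per gene and barcode for each library, with no normalization. Per the submitters' processing notes these came from Cell Ranger 3.0.0 on GRCh38, and per the file headers from software version 3.0.1. The annotation and the strand setting used for counting were not given in the sources used here, so reads of a gene and of a partner on the other strand cannot be told apart for the 32 of 79 members 2-fold apart that have one. Single cells were captured with a droplet 3′ kit after papain dissociation, and RNA freed from broken cells can be counted in other droplets. The members and gene lists were chosen with earlier results of these data known.

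UMIs of the kept barcodes were summed per gene and library and scaled to CPM. The rule of size was at least 2-fold on log2(CPM + 1) with at least 10 CPM in 1 library, and a sum of 0 was set to 3 UMIs for folds (0.0518 CPM without induction, 0.0476 CPM at 45 days). Sums carry exact Poisson, shares Clopper-Pearson and folds conditional binomial 95% intervals, for counting error only. Doublets stayed in the main values, and removing 725 and 831 cells was an alternative. Of 33538 gene identifiers 33456 matched GENCODE 29, which gave coordinates (1-based, GRCh38). Promoter sequences are RefSeq's (GRCh38.p14).

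For clustering, 2000 variable genes, 30 components and 15 neighbours were used with Leiden resolution 1.0 and all listed and MT- genes left out, in scanpy 1.11.5 (Python 3.11.15). A marker counted at 2-fold above other cells and in 10% of the cluster's cells. A name needed 3 such markers and 1 in 3 of its list, and leftover clusters were called mesenchymal-like on 4 markers against the other named clusters. The scoring rule was chosen with the clusters in view. Cluster 19 (0.17% and 1.08% of cells) met enough mesenchymal markers but stayed unnamed, because its cells were shallow and its 10 leading genes held none of those markers. Cluster 18 met markers of 2 classes and is given by number. The summing and counting steps were tested on simulated data. Genes named were NEUROD1, the 10 highest and 10 lowest ratios per class past the rule of size, and in each list the member of the highest CPM and its outer ratios. Other members described with values, and all examples within classes, were chosen after their values were seen. A few members are counted in the totals but not reported here by name or value.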

Additional observations from a re-analysis of the deposited data

Results flagged for a closer look

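Within cell classes 11 listed genes were at least 2-fold apart in opposite directions in 2 classes, with at least 30 UMIs over both libraries in each class. The share of all genes that meet this rule is not given, so the 11 cannot be set against it. Most of the pairs include cluster 0, where 5.92% of all genes were higher and 2.92% lower. The difference between the classes was not tested, since there is 1 library a group. TFAP2B, a factor of ectoderm and neural crest, had a log2 ratio of 2.80 in cycling cells (0.963 and 12.6 CPM) and -1.34 in cluster 0 (166.5 and 65.1 CPM). HOXB2 had 1.01 in endothelial-like cells and -1.07 in cluster 0. MYC had 2.06 in cluster 0 and -1.04 in cycling cells, and WNT2 had 1.22 and -2.88 in the same pair. DKK1 had 1.69 in cluster 0 and -1.48 in endothelial-like cells. DLK1 had 1.04 in cluster 0 (58.6 and 122 CPM) and -2.20 in mesenchymal-like cells (1552 and 336 CPM). IGFBP3, a carrier of insulin-like growth factors, had 1.10 in endothelial-like cells (542 and 1161 CPM) and -1.13 in mesenchymal-like cells (313 and 142 CPM). TGFBR3, a TGF-beta coreceptor, had 2.59 in cluster 0 and -1.09 in mesenchymal-like cells, and GAS1 had 1.47 and -1.27 in the same pair. The mesenchymal-like values are sums over clusters whose shares differed. In the 10 mesenchymal-like clusters taken singly, DLK1 was at least 2-fold lower in 0, GAS1 in 1 and TGFBR3 in 3. IGFBP3 was lower in 2 and higher in 1. HHIP, which binds hedgehog ligands, had 1.06 in cycling cells and -1.09 in cluster 0. PLXNA2, a semaphorin coreceptor, had 1.30 in endothelial-like cells and -1.68 in cycling cells.

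The library with 15 days of induction is not used in the comparison. Of the 484 listed genes under 10 CPM in the other libraries, 7 were at 20 CPM or more there. The share of all genes that meet this rule is not given, so the 7 cannot be set against it. FGF13 was at 32.6 CPM in the 15 day library, beside 1.26 CPM without induction and 6.40 CPM at 45 days. ONECUT2, a factor of liver and neurons, was at 24.6 CPM, beside 0.95 and 7.82 CPM. SST, somatostatin and the ligand of SSTR2, was at 23.2 CPM, beside 0.397 and 6.70 CPM. GABBR2, a GABA receptor, was at 21.6 CPM, with 0 UMIs without induction and 5.43 CPM at 45 days. ERBB4, a neuregulin receptor, was at 21.3 CPM, beside 1.31 and 2.301 CPM. AGT, which encodes angiotensinogen, was at 20.9 CPM, beside 3.02 and 1.57 CPM, and NPPB, a natriuretic peptide, at 20.7 CPM, beside 6.75 and 9.05 CPM.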

How the results depend on the processing

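No paired analysis was possible because each group has 1 library, and for the same reason no replicate could be left out. Counts are given as higher then lower at 45 days. With 5 CPM added, 122 genes and 4 factors were lower, ligands were 4 and 10, and 5 receptors were higher. With a floor of 50 CPM the counts were 50 and 58 for genes, 8 and 1 for factors, 2 and 8 for ligands and 1 and 4 for receptors, and the receptor median was -0.063. With only 10 UMIs needed, genes were 564 and 333, 52 factors, 15 ligands and 20 receptors were higher, and the ligand median was 0.034. With the median of ratios, 3 ligands were higher, 14 receptors lower, and the medians were -0.027 for factors and -0.126 for receptors. The stricter cell filter left 5 ligands higher, and without neuron-like cells 121 genes were higher. With cells weighted equally 11 ligands were lower and the ligand median was 0.046. In mesenchymal-like cells only, 148 genes were higher, the ligand median was 0.107, and NTS (0.24), IL33 (0.17) and APLNR (0.067) changed sign. With clusters held at their pooled share, chosen after seeing the data, the counts were 52 and 35 for genes, 6 and 1 for factors, 2 and 4 for ligands and 0 and 3 for receptors, the ligand median was 0.10, and DLK1 (0.11) and IGFBP3 (0.20) changed sign. The higher floor tests fewer genes; the cause of the other moves was not tested. With every deposited barcode and with doublets removed, the 8 counts stayed within 1.5 times. Leiden resolution 0.5 was run only for the 2 counts of members within mesenchymal-like cells (46 and 34), which did too. Of the 61 named genes that were 2-fold apart, 12 stayed so in all 12 settings, among them LHX9, MEOX2, SOX9, HOXD13, GDF10, CXCL14, GNRH2, TEK, GABRP, GFRA1 and SSTR2. When clusters were held, GNRH2 was compared without cluster 18, where it was highest. Of all 79 members 2-fold apart, 71 stayed so without neuron-like cells and 76 without the top cell of each library.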
